A study of Mus musculus with 12 samples.

Results

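Broad H3K4me2 domains of control mouse liver are long stretches of chromatin in which the histone mark H3K4me2 runs on for 4000 bp or more. They were chosen on measured values: H3K4me2 peaks of the first-listed control library that lay 500 bp or less apart were merged, and merged regions of at least 4000 bp were kept. Of 32591 merged regions, 1105 were kept, which is 3.39% of the regions and 14.3% of their bases (5.97 of 41.6 Mb). Because width in that library chose them, their width there is a description and not a finding.

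The data are ChIP-seq peak lists of H3K4me2 in the liver of LSD1 fl/fl mice injected with AAV8-TBG-GFP (control) or AAV8-TBG-Cre (LSD1-LKO), and of LSD1 in the liver of wild-type C57BL/6 mice. Each list joins 2 ChIP libraries, and the series holds 12 libraries with the control libraries, which the labels call input without antibody and the methods call IgG. Cre stood under the hepatocyte-active Tbg promoter, so the other cells of whole liver keep LSD1. The methods describe injection of young LSD1 fl/fl mice through the tail vein and then a high-fat diet, but do not say whether the livers used for ChIP-seq came from those animals. A list holds the peaks shared by the 2 libraries of a group and no reads, so library depth is unknown, no value per animal exists, and nothing below is a test between genotypes. Fewer cells of a type and less mark per cell cannot be told apart in such tissue.

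H3K4me2 is the dimethylated form of lysine 4 of histone H3, which marks promoters and enhancers in use. At most active promoters it forms a short pair of flanks around the start site, whereas broad domains of lysine 4 methylation are known for spreading into the bodies of genes that define the identity of a cell. LSD1 (Kdm1a) removes mono- and dimethylation from this lysine, usually in a complex with the corepressor CoREST.

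The labelled tissue was checked on marker genes. Any merged control region lay over a TSS of 7 of 10 hepatocyte markers and of 3 of 26 markers of other liver cells (endothelial, Kupffer, stellate and bile duct cells, lymphocytes and other leukocytes). The share over all protein-coding genes was 53.2%, so the 7 of 10 by themselves say little. Of the 10 hepatocyte markers 2 (95% Wilson interval 5.67 to 51.0%) had a TSS in a broad domain, Ttr, the plasma carrier of thyroxine and retinol, and Hnf4a, a master regulator of hepatocytes, and the other 8 did not. None of the 26 markers of other cells did (up to 12.9% by the Wilson interval), and the share over all protein-coding genes was 4.94%.

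Genes of liver transcription factors were prominent among the members. LSD1 peaks overlapped 7 of their 15 domains, against 658 of all 1105 domains (59.5%), so LSD1 was not particular to them. As examples, the sequence under the strongest LSD1 peak of a domain (highest mean −log10 p-value) is shown for 6 domains. They are the longest domains of these genes that held an LSD1 peak. Strongest is meant within the domain: the Foxa2 peak stood at percentile 46.7 of all LSD1 peaks. Each sequence comes from the 250 bp at the center of the LSD1 peak in GRCm38 on the plus strand. It is printed whole or as the longest part free of untranslated exon. Capitals mark matches to the 8 motifs listed after them.

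Ppara, chr15:85733796-85734045: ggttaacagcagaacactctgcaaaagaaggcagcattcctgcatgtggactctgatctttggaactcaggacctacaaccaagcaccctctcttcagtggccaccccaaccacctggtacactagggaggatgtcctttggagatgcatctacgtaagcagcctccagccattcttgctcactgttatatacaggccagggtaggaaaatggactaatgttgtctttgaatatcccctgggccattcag
Foxa1, chr12:57543016-57543265: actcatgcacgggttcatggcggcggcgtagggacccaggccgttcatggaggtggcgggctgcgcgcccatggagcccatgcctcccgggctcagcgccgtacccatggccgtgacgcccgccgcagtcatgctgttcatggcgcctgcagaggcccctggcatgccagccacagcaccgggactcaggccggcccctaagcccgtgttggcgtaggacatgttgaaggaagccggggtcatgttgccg
Prox1, chr1:190174940-190175189: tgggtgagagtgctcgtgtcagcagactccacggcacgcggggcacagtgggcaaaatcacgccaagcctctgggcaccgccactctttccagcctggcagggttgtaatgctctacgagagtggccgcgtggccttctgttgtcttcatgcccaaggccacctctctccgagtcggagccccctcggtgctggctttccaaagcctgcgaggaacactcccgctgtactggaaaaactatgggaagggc
Onecut1, chr9:74866710-74866959: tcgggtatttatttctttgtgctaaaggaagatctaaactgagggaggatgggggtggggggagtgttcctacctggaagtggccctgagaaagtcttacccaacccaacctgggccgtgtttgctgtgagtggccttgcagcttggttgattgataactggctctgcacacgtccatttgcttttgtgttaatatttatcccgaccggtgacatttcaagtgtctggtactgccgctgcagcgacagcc
Foxa2, chr2:148046970-148047213: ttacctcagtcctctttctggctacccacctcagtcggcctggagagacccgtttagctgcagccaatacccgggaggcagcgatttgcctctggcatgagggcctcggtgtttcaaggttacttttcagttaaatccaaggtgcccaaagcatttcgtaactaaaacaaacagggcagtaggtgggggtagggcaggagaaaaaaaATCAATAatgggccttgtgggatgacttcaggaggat
Cebpa, chr7:35119186-35119292: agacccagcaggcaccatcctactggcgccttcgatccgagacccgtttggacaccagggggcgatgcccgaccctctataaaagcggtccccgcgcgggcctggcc

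The Ppara center lay 1062 bp upstream of the nearest Ppara start site, outside protein-coding genes, and that of Prox1 4351 bp upstream. The Foxa1 window lay in coding exon, 2980 bp downstream of a start site of this minus-strand gene, and 68.8% of its bases were G or C. The Onecut1 center was intronic, 351 bp downstream of the start, while the Foxa2 center lay 120 bp upstream and the Cebpa center 8 bp downstream of the start. The stretches printed for Foxa2 and Cebpa have 244 and 107 bases, and the Cebpa stretch ends before the peak center. Only the printed bases were searched for the capitals. The only match in these 6 stretches was ATCAATA, the letters of ONECUT1 sites, in that of Foxa2.

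The letters searched on both strands were TGTTTAC for FOXA, CAAAGTCCA for HNF4A, CAAAGGTCA for a nuclear receptor site as ERR proteins bind it, CCGGAAGT for GABPA, GCGCATGC for NRF1, TTGCNNAA for CEBP, ATCAATA for ONECUT1 and CACGTG for the E-box of clock proteins, and matches could overlap. In 250-bp windows at all LSD1 peak centers, the GABPA letters occurred in 1.18% of the 845 windows inside broad domains (95% Wilson interval 0.644 to 2.16), in 3.38% of the 5682 windows in narrower regions (2.94 to 3.88) and in 0.422% of the 8057 outside (0.302 to 0.589). Among windows within 1 kb of a TSS the share was again lower in the domains, at 1.73% of 579 (0.941 to 3.15) against 4.67% of 3833 (4.05 to 5.38). The CEBP letters went the other way near start sites, at 7.94% (6.01 to 10.4) against 4.59% (3.97 to 5.3). Over all windows they were in 11.5% inside the domains (9.5 to 13.8) and 8.5% in narrower regions (7.8 to 9.25). They were most frequent outside, at 15.2% (14.5 to 16.0), so they were not particular to the domains. The FOXA letters were in 3.55% of domain windows (2.5 to 5.02) and 2.82% of windows in narrower regions (2.42 to 3.28), with overlapping intervals. HNF4A and nuclear receptor letters were each in 0.71% of domain windows (0.326 to 1.54), against 0.792 and 0.722% in narrower regions. NRF1 letters were in 1.07% (0.561 to 2.01) against 1.92% (1.59 to 2.31), and E-box letters in 6.04% against 5.68%. ONECUT1 letters were in 0.947% (0.48 to 1.86) against 2.04% (1.7 to 2.44), and near start sites in 0.518% against 0.6%. The intervals overlap for each of these 5 motifs. A match here is a run of letters, not a site shown to be bound.

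The domains ran from 4000 to 15893 bp, with a median of 4882 bp and quartiles of 4367 and 5918 bp. Most were mosaics of peaks. Only 85 consisted of 1 peak, 284 of 2, 345 of 3 and 391 of 4 or more, up to 10. The 2428 gaps between their peaks had a median of 227 bp and made up 9.85% of the bases. A peak of 4000 bp or more by itself was present in 209 domains. Of the domain bases, 60.3% were intron of protein-coding genes, 5.99% coding exon, 13.1% other exon and 20.6% outside these genes, whereas 30.8% of the bases of narrower regions lay outside. The median GC content was 49.8% (quartiles 46.3 and 53.7), and CpG made up 2.77 per 100 bases (1.64 to 3.9) against 3.47 in regions of 3000 to under 4000 bp (2.04 to 4.83). Domains lay on 20 chromosomes, with 2 on X.

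At the edge of the rule, the members just inside were a region with no TSS (4000 bp) and the domains of Skp1a, a subunit of SCF ubiquitin ligases, and Tmem30b, a flippase subunit (both 4002 bp). Just outside were the regions of Lmo7 (3999 bp), Nt5dc3 (3998 bp) and Fdx1 (3997 bp), which encodes the mitochondrial electron carrier ferredoxin. These neighbours differ by at most a few bases, so the boundary is arbitrary.

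The longest domains belonged to regulators and enzymes of liver metabolism. The domain of Bcl6, a transcriptional repressor that acts on lipid genes in liver, was the longest (chr16:23978258-23994150, 15893 bp). Peaks covered 14604 bp of it in the first-listed control library, 15642 bp in the second, 12784 bp in the first-listed LSD1-LKO library and 14289 bp in the second. Both LSD1-LKO libraries lay below both control libraries, but the 2 libraries of each genotype differed by more than the nearest libraries of the 2 genotypes did. Ppara, the receptor that switches on fatty acid oxidation in fasting, had a domain of 14713 bp (chr15:85733368-85748080) with 12721 and 14377 bp covered in control and 9793 and 14185 bp in LSD1-LKO liver.

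Rxra, the partner of Ppara and of many other nuclear receptors, followed with 14564 bp, of which 13032 and 14006 bp were covered in control and 11552 and 13690 bp in LSD1-LKO liver. In both Ppara and Rxra the second-listed LSD1-LKO library lay between the control libraries, and the first-listed one was lowest. Others among the 10 longest were Nfib, a nuclear factor I protein (14362 bp), Dhrs3, which reduces retinaldehyde (14342 bp), Gamt, the last enzyme of creatine synthesis, with its neighbour Dazap1 (14227 bp), Tnrc18 (12833 bp), Aldh2, which oxidises acetaldehyde (11733 bp), and Klf15, a fasting-induced regulator of gluconeogenesis (11728 bp). In these 6, the first-listed LSD1-LKO library covered from 70.2% (Gamt) to 88.8% (Klf15) of the bases and the second from 90.7% (Tnrc18) to 98.7% (Klf15).

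A TSS of a protein-coding gene lay in 949 of the 1105 domains (85.9%, 95% Wilson interval 83.7 to 87.8), compared with 35% of all merged regions. The share grew with width, from 10.9% of regions under 1000 bp to 52.7, 75.3 and 81.1% in the next classes, and a longer region has more room for a TSS. There were 808 domains with the TSSs of 1 gene, 133 with those of 2 and 8 with those of 3, and together they held 1082 genes, which is 4.94% of 21911 protein-coding genes and 9.28% of the 11654 with any merged region over a TSS. Of the 156 domains without a protein-coding TSS, 37 held a noncoding one and 119 none. Of these 156, 99 lay inside a protein-coding gene and 51 outside any.

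**Figure D1:**
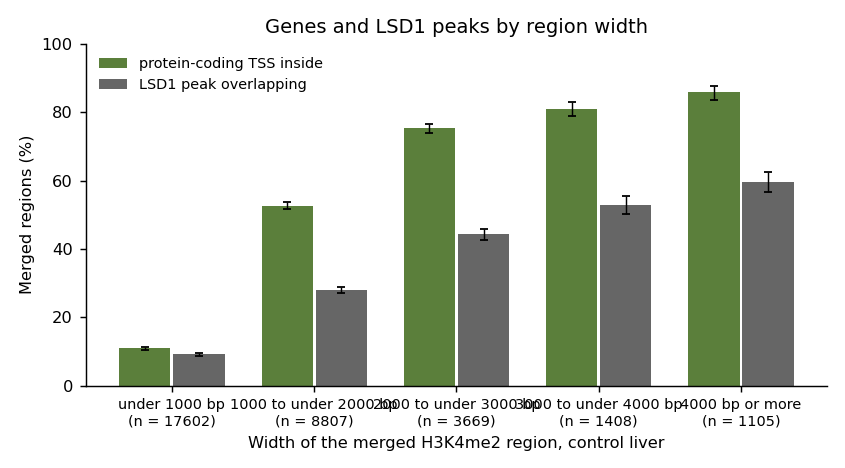
Share of merged control H3K4me2 regions (y axis, %) that held a protein-coding TSS (green) or overlapped an LSD1 peak (grey), by region width (x axis), with 95% Wilson intervals. Both shares were highest in the 1105 regions of 4000 bp or more, at 85.9 and 59.5%.

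The mark reached into the gene rather than away from it. In the 808 domains with 1 gene, the domain extended a median of 1069 bp upstream of the 5′-most TSS and 3907 bp downstream, and 742 (91.8%, 89.7 to 93.5) were longer downstream. Counting from the 3′-most TSS in the domain gave 1865 and 3213 bp and 551 domains (68.2%, 64.9 to 71.3), so part of the asymmetry depends on the TSS chosen. In the 177 with 1 TSS only, where there is no choice, 159 (89.8%, 84.5 to 93.5) were longer downstream, with medians of 1208 and 3711 bp. Narrower regions of 1000 to under 4000 bp leaned the same way, in 84.7% of 7510 from the 5′-most TSS (83.8 to 85.5), with medians of 614 and 1239 bp.

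At the TSS itself the mark dipped. In the 200-bp bin just upstream, 71.4% of the 808 domains lay in a peak of the first-listed control library, compared with 84.0% at 300 bp upstream and 93.6% at 300 bp downstream. The dip was present in all 4 libraries, with 83.4% in the second-listed control library and 55.3 and 78.7% in the LSD1-LKO libraries in that bin. The gaps inside the domains carried this dip: 23.0% of the 3849 protein-coding TSSs in domains fell in a gap, although gaps were 9.85% of the bases.

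**Figure D2:**
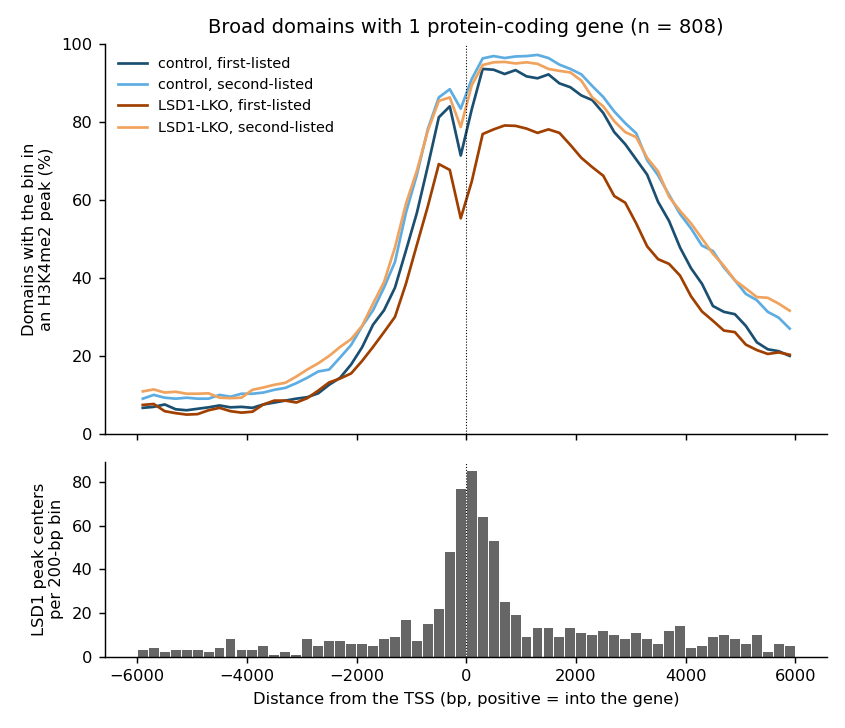
Upper panel, share of the 808 domains with 1 protein-coding gene (y axis, %) whose 200-bp bin center lay in an H3K4me2 peak of each library, by distance from the 5′-most TSS in the domain (x axis, bp). Lower panel, LSD1 peak centers per bin. The mark dipped just upstream of the TSS and extended farther downstream, and LSD1 centers lay on both sides of the TSS, with 77 in the bin just upstream, 85 in the bin just downstream and 64 in the next bin downstream, where the mark was no longer low.

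Regulators of liver identity were the best represented of the gene lists. Of 24 liver transcription factors, 15 (62.5%, 42.7 to 78.8) had a TSS in a broad domain, against 4.94% of all protein-coding genes. The share was 20.8% (5 of 24) when regions were merged over 0 bp and 41.7% (10 of 24) with a minimum width of 5000 bp. It was 71.4% of the 21 liver factors with any merged region over a TSS, against 9.28% of all marked genes. After Ppara and Rxra came the pioneer factor Foxa1 (9833 bp), Prox1 (9791 bp), Onecut2 (9041 bp), Hhex (7902 bp), Onecut1 (7720 bp), Foxa2 (7206 bp), Cebpa (6301 bp) and the xenobiotic receptor PXR, Nr1i2 (5702 bp). Most of these genes are needed for the liver to form or to stay differentiated.

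Covered bases in these domains show how the libraries differed. Foxa1 had 9388 and 9833 bp in control and 9122 and 7531 bp in LSD1-LKO liver, and here the second-listed LSD1-LKO library was the lowest. Cebpa, which drives hepatocyte differentiation, had 5534 and 6182 bp in control and 4849 and 6301 bp in LSD1-LKO liver, so the second-listed LSD1-LKO library was the highest of the 4. Nr1i2 had 5129 and 5372 bp against 5375 and 5601 bp, both LSD1-LKO libraries exceeding both control libraries. Hnf4a had 3675 and 3402 bp in control but 1029 and 3701 bp in LSD1-LKO liver, a difference between the LSD1-LKO libraries wider than any between the groups. Over the 15 domains the median share covered was 97.2% in the second-listed control library, 75.4% in the first-listed and 97.3% in the second-listed LSD1-LKO library.

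**Figure D3:**
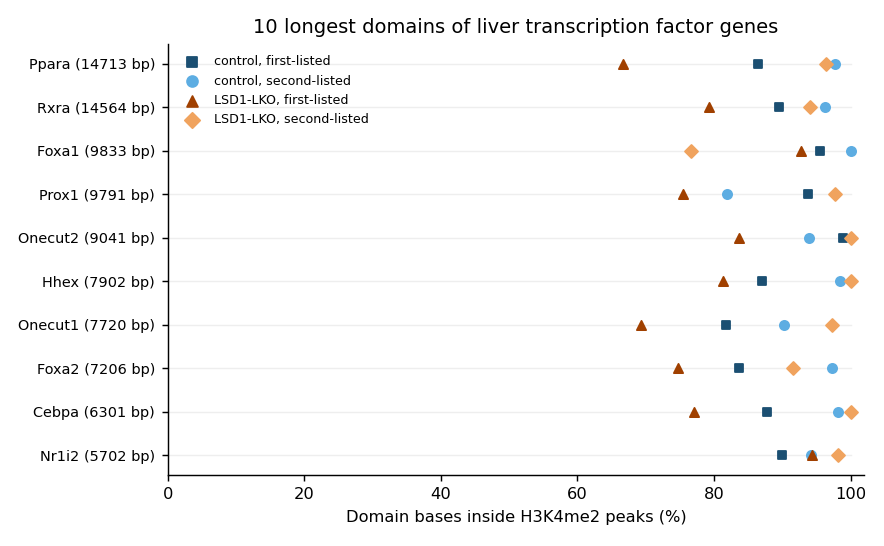
Share of bases inside H3K4me2 peaks (x axis, %) in each of the 4 libraries, for the 10 longest domains of liver transcription factor genes (y axis, domain width in bp). The first-listed LSD1-LKO library was lowest in 8 of the 10, the exceptions being Foxa1 and Nr1i2, and the second-listed LSD1-LKO library lay among the control libraries or above them in most.

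Immediate-early and stress response genes formed the next best represented list. Of these 36 genes, 20 (55.6%, 39.6 to 70.5) had a domain, against 4.94% of all protein-coding genes. After Klf15 the longest were those of Socs3, the feedback inhibitor of cytokine signalling (10918 bp), Zfp36, which destabilises cytokine mRNAs (8949 bp), the chaperone Hspa5 (7389 bp), Txnip (7053 bp), Junb (6800 bp), the ERK phosphatase Dusp6 (6390 bp), Ddit3 (6366 bp), Ier2 (5955 bp) and Klf9 (5713 bp). Socs3 domain bases in the LSD1-LKO libraries were 63.0 and 71.6%, against 85.8% in the second-listed control library. Klf9, by contrast, had 96.2 and 97.8% against 100%. Several immediate-early genes of the list had no domain, among them Fos (region of 2889 bp), Fosb (2867 bp) and Egr1 (3110 bp).

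Metabolic and secretory genes of hepatocytes were also frequent, beside 4.94% of all protein-coding genes and 9.28% of those with any merged region over a TSS. Of 40 lipid and fatty acid genes, 17 (42.5%, 28.5 to 57.8) had a domain, and these included Acsl1, which activates fatty acids (10147 bp), Cpt1a, the gate of mitochondrial import of fatty acids (8114 bp), Insig2 (7148 bp), Hadha and Hadhb in a shared domain (7148 bp), Lpin1 (7145 bp), the lipid droplet protein Plin2 (7017 bp), Fasn (6272 bp), Elovl5 (5663 bp) and Dgat2 (5364 bp). Of 48 secreted plasma proteins, 17 (35.4%, 23.4 to 49.6) had one, among them Igf1 (8497 bp), Apoe (7237 bp), Apoc2 with Apoc4 (7118 bp), Ttr (6859 bp), ceruloplasmin Cp (6093 bp), complement C3 (5638 bp) and haptoglobin Hp (5566 bp). Typical members without a domain included Alb (region of 642 bp), Apob (1494 bp) and Fga (703 bp). The urea cycle and amino acid list had 8 of 28 (28.6%), led by Ahcy (6653 bp), Gpt (6104 bp) and Got1 (6006 bp). Of the urea cycle enzymes Ass1 had a domain (4115 bp). Asl and Arg1 had only regions of 1872 and 1909 bp, and Cps1 and Otc had no region over a TSS.

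Regulators of glucose and of the clock came close behind, again beside 4.94% of all protein-coding genes. Of 23 glucose and insulin genes, 7 (30.4%) had a domain, among them Trib1 (7628 bp), the fructose kinase Khk (7058 bp), Foxo1 (6820 bp), the glucose transporter Slc2a2 (6385 bp), Sik1 (4625 bp) and Irs1 (4149 bp). Of 19 circadian genes, 6 (31.6%) did: Hlf (10494 bp), Nfil3 (7432 bp), Per1 (6192 bp), Ciart (5279 bp), Per2 (5138 bp) and Bhlhe41 (4339 bp). Of 23 cytochrome P450 genes, 5 (21.7%) had a domain, namely the bile acid enzyme Cyp27a1 (9366 bp), Cyp2d10 (5559 bp), the retinoic acid hydroxylase Cyp26a1 (4617 bp), Cyp2d9 (4357 bp) and Cyp2j5 (4056 bp). Cyp2d9 and Cyp2d10 are close paralogs, and the methods name the default options of Bowtie 2, under which a read that matches several places equally well is put at 1 of them, so the values of this pair are uncertain.

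Other gene groups had few or no broad domains, beside 4.94% of all protein-coding genes. None of the 33 listed nuclear genes of the respiratory chain had a broad domain (up to 10.4% by the Wilson interval). A merged region lay over a TSS of 30 of them, with a median width of 2189 bp. The 33 are a chosen part of such genes. Ndufb3 (4232 bp) and Atp5j (4242 bp), outside the 33 but in the downregulated mitochondrial list below, did have a broad domain. Of 39 cytosolic ribosomal protein genes 2 (5.13%, 1.42 to 16.9) did, Rpl35 beside Arpc5l and Rpl7 beside Rdh10, a share near that of all genes. None of 25 transcription factors of other lineages (up to 13.3%), 4 of which were marked at all, and none of 15 genes whose ChIP regions the study mapped or assayed by qPCR had a domain (up to 20.4%), though 13 of the latter were marked. The intervals of these lists with 0 members all include 4.94%, so nothing is read from them.

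Of the 356 mitochondrial genes that the study lists as downregulated in LSD1-LKO liver, which were selected on expression in that study and are not independent of its genotypes, 49 (13.8%, 10.6 to 17.7) had a broad domain, against 4.94% of all protein-coding genes, and 15.7% of the 313 that were marked did, against 9.28%. Among the 14 subunits and partners of the LSD1-CoREST complex, 2 (14.3%, 4.01 to 39.9) had a broad domain, Gse1 and Phf21a. This interval includes the 4.94% of all protein-coding genes, so nothing is read from the count. Gse1 had a pair of broad domains, of 7361 and 4824 bp, with LSD1 peaks in both.

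**Figure D4:**
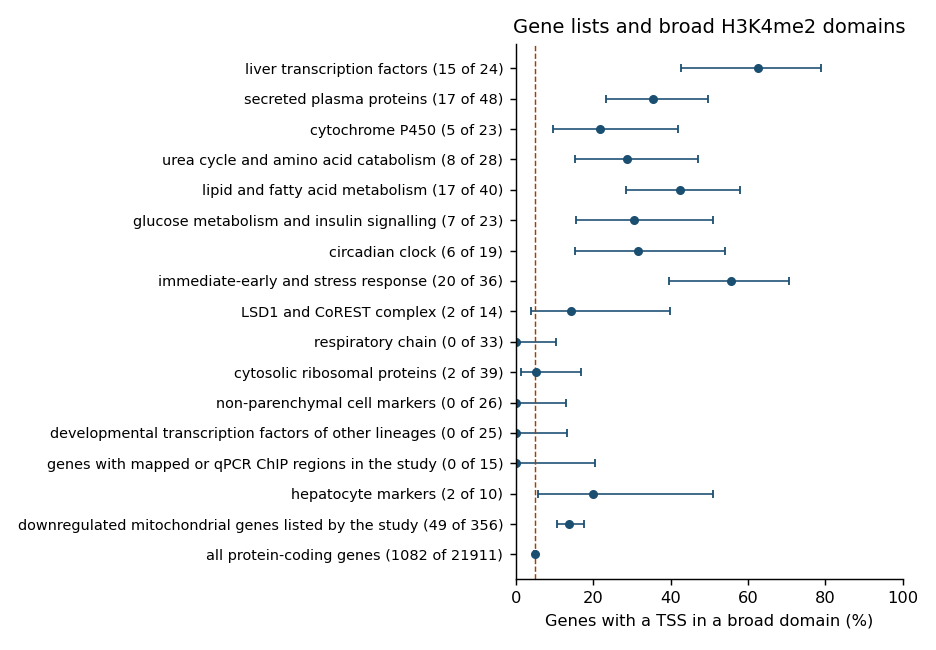
Share of the genes of each list (y axis, members with a domain of all members) that had a TSS in a broad control domain (x axis, %), with 95% Wilson intervals. The dashed line marks the share of all protein-coding genes, 4.94%. Liver transcription factors (62.5%) and immediate-early and stress response genes (55.6%) lay farthest to the right. At the left edge lay every list with no member in a domain: the respiratory chain (0 of 33), markers of other liver cells (0 of 26), factors of other lineages (0 of 25) and the study's ChIP genes (0 of 15). Their intervals all include the dashed line.

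Few microRNA genes lay inside the domains. RefSeq hairpins of 18 of 1005 miRNA genes fell whole in 17 domains. This is a smaller share than the 4.94% of protein-coding genes with a TSS in a domain, though a whole hairpin and a TSS are unlike measures. Hairpins in narrower regions were not counted, so nothing is read from the count. The mature sequences of 5 that are well known in liver or in cancer are shown (RefSeq, GRCm38.p6, seed bases 2 to 8 in capitals), and they were chosen after their values were seen. Their 5 seeds all differ.

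mmu-miR-21a-5p: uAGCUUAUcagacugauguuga
mmu-miR-22-3p: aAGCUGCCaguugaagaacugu
mmu-miR-193a-3p: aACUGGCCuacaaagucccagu
mmu-miR-191-5p: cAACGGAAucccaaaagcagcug
mmu-miR-425-5p: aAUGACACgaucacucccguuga

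Mir21a, which is induced in many injured tissues, lay at chr11:86584067-86584158 in a domain of 5726 bp with no protein-coding TSS, covered to 89.4% in the second-listed control library and to 83.1 and 90.6% in LSD1-LKO liver. Mir22 (chr11:75463716-75463810) lay in the 4914-bp domain of Tlcd2, with 94.5% and then 69.6 and 91.9%. Mir193a (chr11:79711969-79712034) lay in a domain of 4881 bp without a coding TSS, and Mir191 (chr9:108568319-108568392) and Mir425 (chr9:108568777-108568861) shared the domain of Dalrd3 and Ndufaf3 (5060 bp). In these last domains the first-listed LSD1-LKO library covered 73.3 and 61.1% and the second 98.0% of each.

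LSD1 itself was present in many domains. An LSD1 peak of wild-type liver overlapped 658 of the 1105 (59.5%, 56.6 to 62.4), compared with 21.8% of all merged regions and 52.9% of regions of 3000 to under 4000 bp (50.3 to 55.5). Per length the order was different. The domains held 141 LSD1 peak centers per Mb (132 to 151, exact Poisson interval), fewer than the 173 per Mb of regions of 3000 to under 4000 bp and the 191 per Mb of regions of 2000 to under 3000 bp, and more than the 92.7 per Mb of regions under 1000 bp. Counting the LSD1 peaks called at a MACS p-value of 1e-05 or lower by each library, 148 domains (13.4%) held a peak, at 25.3 centers per Mb.

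The domains contained 845 LSD1 peak centers, 5.79% of all LSD1 peaks, with none in 472 domains, 1 in 460, 2 in 138, 3 in 31 and 4 in 4. Of these centers 579 (68.5%, 65.3 to 71.6) lay within 1 kb of a protein-coding TSS, much as in narrower regions (67.5%, 66.2 to 68.7). Their strength was also alike: the median percentile of an LSD1 peak by its −log10 p-value was 66.5 in broad domains, 67.4 in narrower regions and 34.4 outside merged regions. Domains with a TSS overlapped an LSD1 peak in 60.9% of cases (57.8 to 64.0) and those without one in 51.3% (43.5 to 59.0).

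LSD1 peaks and the gaps of the mark met more often than the length of the gaps gives. Of the 845 centers, 144 (17%, 14.7 to 19.7) lay in a gap, while gaps made up 9.85% of the bases. Domains built from the second-listed control library had 7.99% of their LSD1 centers in gaps, and gaps were 4.14% of their bases, so the share of centers exceeded the share of bases there too. With only the LSD1 peaks called at a p-value of 1e-05 or lower by each library, 19 of 151 centers (12.6%) lay in a gap. That is nearer to the 9.85% of the bases and rests on few centers. In the 808 domains with 1 gene, LSD1 centers were most frequent within 200 bp of the TSS, with 77 centers in the bin upstream and 85 in the bin downstream. The centers were not confined to the dip of the mark: 48 lay in the bin at 300 bp upstream, and 64 and 53 in those at 300 and 500 bp downstream, where 93.6 and 93.4% of domains were marked, falling to 15 at 700 bp upstream and 19 at 900 bp downstream. Per 100 genes, the 2 bins beside the TSS held 9.53 and 10.5 centers in the domains and 8.47 and 12.5 in regions of 1000 to under 4000 bp. Seen from the genes, an LSD1 peak lay within 1 kb of a TSS in 58.5% of the 1082 genes with a domain (55.5 to 61.4), in 54.4% of genes with a region of 3000 to under 4000 bp (51.7 to 57.1), 50.1% with 2000 to under 3000 bp, 36.4% with 1000 to under 2000 bp, 16.8% below that and 5.51% without a region.

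The 4 domains with 4 LSD1 centers were those of Neat1, the long noncoding RNA of paraspeckles, of Gne, which starts sialic acid synthesis, of Abhd17c, a depalmitoylase, and of Hes1, the repressor downstream of Notch. The Neat1 domain (chr19:5841498-5849676, 8179 bp) had its strongest LSD1 peak at chr19:5845237-5845936, in a gap, where LSD1 was enriched 5.01-fold and 4.97-fold in its 2 libraries. In Hes1 (4973 bp) the 4 peaks had fold enrichments from 2.07 to 3.26 in the first and from 4.63 to 5.7 in the second library. Several first-listed peaks can share 1 peak of the second library, and in the second library the domains held 4 LSD1 peaks in Gne, 3 in Neat1, 3 in Abhd17c and 2 in Hes1. Ppara followed, as the longest domain with 3 centers. Its peaks had fold enrichments of 3.34, 2.58 and 4.01 in the first library, paired with 2 peaks of 3.95 and 2.65 in the second.

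Strong LSD1 peaks lay in the domains of other named genes. The strongest in Gamt and Dazap1 reached 7.79 and 7.67 fold, at percentile 99.6 of all LSD1 peaks. The strongest in Phf21a, itself a subunit of the LSD1 complex that reads unmethylated lysine 4, reached 9.12 and 6.82 fold, at percentile 99.7. In contrast Rxra, Hhex and Onecut2 held no LSD1 center in domains of 7902 to 14564 bp.

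Coverage of the control domains in LSD1-LKO liver depended on the library read. Peaks of the first-listed LSD1-LKO library covered 67.4% of the domain bases and those of the second-listed 87.2%, compared with 90.1 and 91.0% in the control libraries. Both control values are held up by construction. The first is what the gaps leave in the choosing library. For the second, each listed control peak is overlapped over at least 50% of its length by a second-listed peak. No such floor holds for the LSD1-LKO libraries, here or in the single domains named above and below. A lower value in the other list is partly built in, because the domains were chosen for their width in control liver. The mirror shows this: the same rule on the LSD1-LKO list gave 791 domains, covered to 87.2 and 93.1% in their own libraries and to 73.9 and 85.2% in the control libraries. Choosing on the second-listed libraries gave 1942 control and 2378 LSD1-LKO domains, the opposite order, with 81.8% of the control domains' bases covered in LSD1-LKO and 74.9% of the LSD1-LKO domains' bases covered in control liver.

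Per domain the first-listed LSD1-LKO share had a median of 69.1% (quartiles 57.5 and 79.8) and ran from 0 to 100%, and the second-listed share had a median of 91.9% (81.0 and 97.5). Under 50% of the bases were covered in 162 domains (14.7%), compared with 47.8% of all merged regions. The base coverage was 36.2% in regions under 1000 bp, 65.7% in those of 2000 to under 3000 bp and 66.2% in those of 3000 to under 4000 bp. The 67.4% of the broad domains was thus near that of other regions of 2000 bp or more. In the mirror, coverage of LSD1-LKO regions in the first-listed control library also rose with width, from 35.7% under 1000 bp to 73.9% at 4000 bp or more. An LSD1-LKO domain overlapped 463 of the control domains (41.9%), and 468 of the LSD1-LKO domains (59.2%) overlapped a control domain.

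Coverage was lowest at the rims of the domains in every library except the one that chose them. Within 500 bp of an edge the first-listed LSD1-LKO library covered 52.0% of the bases and the second 74.7%. These shares rose to 74.9 and 92.7% at 2000 bp or more inside. The second-listed control library fell at the rim too, with 81.4% there and 94.0% at 1500 to under 2000 bp inside. The slope was thus not particular to LSD1-LKO liver. The LSD1-LKO domains had the same slope when read in the control libraries, from 60.2 and 73.4% at the rim to 80.1 and 90.8% inside. Gaps of the control domains were covered to 81.0% by the second-listed control library and to 48.4% by the first-listed LSD1-LKO library, so many gaps belong to 1 library. The domains held 3533 control peaks and touched 3780 LSD1-LKO peaks.

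**Figure D5:**
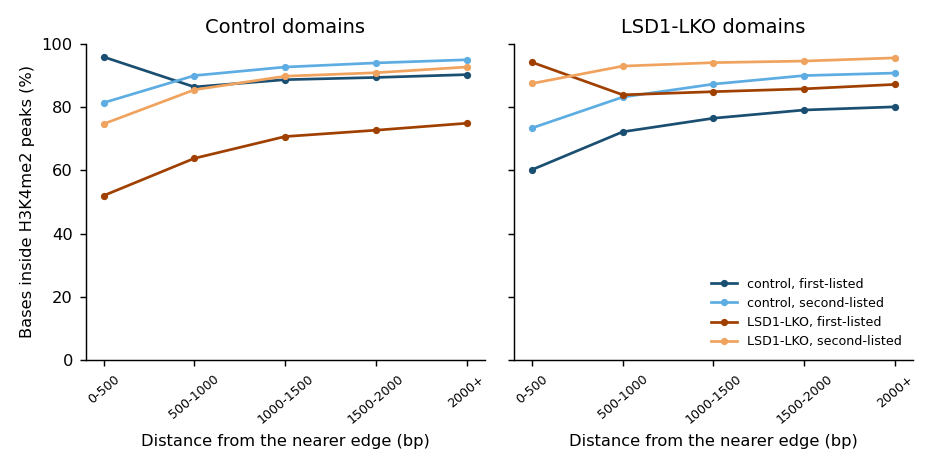
Share of domain bases inside H3K4me2 peaks (y axis, %) by distance from the nearer domain edge (x axis, bp), for the 1105 control domains (left) and the 791 LSD1-LKO domains (right), with 1 line per library. The first-listed library that chose the domains is highest at the rim by construction, and the first-listed library of the other genotype is lowest throughout.

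Domains with an LSD1 peak were covered in LSD1-LKO liver about as fully as those without. The 658 with a peak had 68.6 and 87.6% of their bases covered in the LSD1-LKO libraries and 91.1% in the second-listed control library, and the 447 without had 65.6 and 86.5% and 90.8%. These differences are small beside the distance between the 2 LSD1-LKO libraries. Domains without a protein-coding TSS were covered less, to 60.0 and 81.1%, than the 949 with one, at 68.6 and 88.1%, while the second-listed control library covered 89.1 and 91.2%.

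The lowest coverage in the first-listed LSD1-LKO library was found in 5 domains. No base of the domains of Gata6, an endoderm factor (7577 bp), Nfix, a nuclear factor I protein (4592 bp), or Xdh, the xanthine dehydrogenase of purine breakdown (4580 bp), lay in a listed peak of either LSD1-LKO library. A domain on chromosome 3 without a TSS (4396 bp) had 0 and 2059 bp, and one on chromosome 7 (4078 bp) had 22 and 0 bp. All 5 were covered to at least 80.9% in the second-listed control library, at 96.3% for Gata6. The zeros do not show that the mark was absent: the peak numbering of the 2 LSD1-LKO libraries skips 6 and 11 peaks between the listed peaks that flank the Gata6 domain, which lie 167 kb apart in both. It skips 4 and 5 peaks over 19.5 and 19.2 kb around Nfix and 3 and 8 over 41.3 and 40.9 kb around Xdh. The skipped peaks are not in the shared list and may lie anywhere in those spans, in the domain or beside it. The LSD1-LKO domains had 11 such zeros in the first-listed control library, among them Foxa3 with Sympk (5608 bp) and Fah (4457 bp), with skipped numbers likewise.

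A stricter reading over both libraries left few domains. Under 50% of the bases were covered in each LSD1-LKO library, with 80% or more in the second-listed control library, in 21 control domains (1.9%, 1.25 to 2.89). The mirror count was 24 of 791 LSD1-LKO domains (3.03%, 2.05 to 4.47), and the intervals overlap. Most of the 21 held no protein-coding TSS, whereas 949 of all 1105 control domains held one. Besides Gata6, Nfix and Xdh, the members with such a TSS included Apoe, the ligand that clears lipoprotein remnants. The Apoe domain had 6506 and 6854 bp covered in control and 1559 and 3119 bp in LSD1-LKO liver. Mafg, a small Maf protein that pairs with Nrf2, had 5445 and 5749 bp against 2430 and 2273 bp, and Gstz1, an enzyme of tyrosine breakdown, 3715 and 3875 bp against 1203 and 1510 bp. E2f8, a repressor of cell cycle genes, had 5815 and 5914 bp against 1923 and 3347 bp. That both LSD1-LKO values lie below both control values follows from how the 21 were picked. Mafg, Gstz1 and E2f8 were named after their values were seen.

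The highest coverage in the first-listed LSD1-LKO library was found in the domains of Rbpms, an RNA-binding protein (5035 bp, 100% in the first-listed and 92.5% in the second-listed library), a domain on chromosome 6 without a TSS (4978 bp, 100% in both), Cdk6, the cyclin D-dependent kinase (4458 bp, 98.4 and 100%), Tent4b, a poly(A) polymerase (4065 bp, 98.1 and 99.3%) and the carboxylesterase Ces1c (4918 bp, 98.0 and 76.3%, the second of these below the median of 91.9% over all domains). Rbpms and Tent4b held LSD1 peaks, 2 and 1, and the other 3 held none. Among the lists with 5 or more domains the median first-listed LSD1-LKO share was lowest for the 17 secreted plasma proteins (58.6%) and the 6 circadian genes (62.5%). It was highest for liver transcription factors (75.4%) and immediate-early and stress response genes (76.3%), beside 70.0% for all domains with a protein-coding TSS. The smaller lists had 36.4% for the 2 domains of hepatocyte markers, 72.9% for 2 of ribosomal proteins and 82.1% for 3 of the LSD1-CoREST list. In the second-listed library plasma proteins, circadian genes, liver transcription factors and immediate-early and stress response genes had medians of 93.7, 91.6, 97.3 and 95.5%, beside 92.4%. The order of plasma proteins and the rest was thus not the same in both libraries. For the study's downregulated mitochondrial genes the 2 medians were 64.0 and 90.0%, and for cytochrome P450 genes 71.7 and 78.4%. They were 69.2 and 91.0% for glucose genes, 70.9 and 94.8% for lipid genes and 72.1 and 97.1% for the urea cycle list.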

How the data were processed

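ChIP-seq was performed on mouse liver for LSD1 (wild type) and H3K4me2 (control and LSD1-LKO), with 2 libraries and 2 control libraries per group. Per the labels and methods, the authors mapped reads to mm10 with Bowtie2, called narrow peaks in each library with MACS2 and joined the libraries of a group with bedtools 2.25.0. The deposited lists give for each peak the fold enrichment over the control library (a ratio) and −log10 p-values for both libraries, and the length of their overlap. Listed −log10 p-values go down to 1.3, past the threshold that the methods name, and every overlap covers at least 50% of the first-listed peak. The lists show neither depth nor which library is which replicate, and first-listed H3K4me2 peak names carry the tag picard in both lists while second-listed names do not. The 12 columns of integer scores and summit offsets were not used.

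First-listed intervals 500 bp or less apart were merged, and regions of 4000 bp or more were kept. TSSs were those of all transcripts of protein-coding genes in GENCODE M21 (GRCm38), whose 21 chromosomes match the lists. An LSD1 peak counted as overlapping from 1 bp and as inside by its center. Shares have 95% Wilson intervals, which cover counting error only. No test was run, because the lists hold no value per animal and regions are not replicates. LSD1 peaks were ranked as percentiles of their list, using −log10 p-values averaged over the 2 libraries.

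Named genes are those of the 10 longest domains, the 5 with most LSD1 peak centers, the 5 with the lowest and the 5 with the highest LSD1-LKO share, the 3 shortest kept and the 3 longest regions not kept, and up to 10 members of each of 15 gene lists, longest domain first, and some of these genes are not reported here. The domains and lists were chosen with earlier results of these data known. Windows and miRNAs come from RefSeq (GRCm38.p6). Interval code was tested on simulated intervals. Python 3.11.15, numpy 2.4.6, pandas 2.3.3, scipy 1.17.1, pysam 0.24.0 and matplotlib 3.10.9 were used.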

Additional observations from a re-analysis of the deposited data

How the results depend on the processing

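No paired analysis was possible because the results come from no test and the lists carry no replicate numbers. Each of the 8 results was recomputed under alternative settings, 63 values in all, of which 29 stayed within the 95% interval of the reported value, or within 1.5 times for the number of domains, and 34 did not. The cause was not tested unless the alternative itself fixes it.

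With a merge distance of 0 bp there were 211 domains, 81.0% with a TSS, 54.0% with LSD1, 76.5% covered in LSD1-LKO (mirror 84.9%), 20.8% of the liver factors and, by construction, 0% of LSD1 centers in gaps. With 1000 bp the values were 83.6% with a TSS, 62.3% covered (mirror 67.2%) and 23.5% of centers in gaps. A minimum width of 3000 bp gave 2513 domains, 83.2% with a TSS, 55.8% with LSD1 and 156 centers per Mb, and 5000 bp gave 514 domains, 63.0% with LSD1 and 41.7% of the liver factors. H3K4me2 peaks with p at or below 1e-05 in both libraries gave 556 domains, 87.9% with a TSS, 55.5% covered and 10.7% of centers in gaps. The second-listed H3K4me2 library gave 1942 domains, 83.3% with a TSS, 81.8% covered, 79.2% of the liver factors and 7.99% of centers in gaps, below the reported 17%, while gaps themselves fell to 4.14% of the bases. Counting 1 TSS per gene gave 69.7% with a TSS, and a TSS within 1 kb gave 89.7%. LSD1 peaks with p at or below 1e-05 gave 13.4% of domains, 25.3 per Mb and 12.6% in gaps. Merging the other list's peaks gave 75.5% covered (mirror 80.3%).

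The lists leave out every peak found in 1 library only and show no depth. The intervals cover the counting of regions, not the spread between mice, and 2 libraries per genotype give no test of a difference between genotypes.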
